A study of Homo sapiens with 9 samples.

Results

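Nuclear tRNA genes carried small-RNA loci almost without exception in a list of loci called from the breast cancer cohort of The Cancer Genome Atlas. The list held 108742 loci, and 424 of them (0.39%) overlapped a nuclear tRNA gene of the RefSeq annotation of hg38 by at least 1 base. These 424 loci lay on 423 of the 431 tRNA genes that could be placed (98.1%, exact Clopper-Pearson 95% interval 96.4 to 99.2%). Members were chosen by position alone, with no measured level. The list gives a position, a strand and a score of 1 in every row, so it shows where RNA piled up and not how much.

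The series itself is small RNA sequencing of MDA-LM2, a lung-metastatic derivative of the MDA-MB-231 breast cancer cell line, treated with siRNA. Its 9 libraries comprised 2 with DCGR8 knockdown (as labelled), 2 with DROSHA, 2 with TARBP2 and 1 with DICER knockdown, factors known for their roles in miRNA processing, and 2 with control siRNA. No column of the list belongs to any of these libraries, so no knockdown was compared with control, no depth per library can be given and no value has replicates. All shares below describe the cohort list, and their intervals cover counting error only, since tRNA copies with near-identical sequence share reads. How reads that map to several copies were placed is not given in the sources used here.

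Transfer RNAs carry amino acids to the ribosome, where their anticodon pairs with the codon. RNA polymerase III transcribes most tRNA genes from a promoter inside the gene, the A box and the B box, while selenocysteine tRNA genes rely mainly on elements upstream. The transcript then loses its 5′ leader and 3′ trailer, some lose an intron beside the anticodon, and a CCA tail is added. Mature tRNAs are also cut into shorter fragments, which small RNA libraries capture, and angiogenin is a ribonuclease known for cutting in the anticodon loop.

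The sequences of a few covered genes show what the loci lie on. They were read from RefSeq promoter windows (GRCh38.p14) of neighbouring genes, and capitals mark the anticodon and, further 3′, the motif GTTCNANNC, which is shared by the T arm of the tRNA and the B box. A pair of asparagine genes is shown first because such copies differ at few bases. TRN-GTT4-1 (chr1:16889677-16889750, plus strand) had a locus at 16889651 to 16889750, and TRN-GTT6-1 (chr1:143735920-143735993, minus strand) had one at 143735901 to 143736000. Both genes were wholly covered, and they differ at 3 of 74 positions, counted from 1 at the 5′ end: C17G, A47G and C65T.
TRN-GTT4-1: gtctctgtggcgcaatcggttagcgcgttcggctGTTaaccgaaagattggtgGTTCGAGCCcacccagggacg
TRN-GTT6-1: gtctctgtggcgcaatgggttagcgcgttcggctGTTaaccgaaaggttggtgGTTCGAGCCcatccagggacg

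A histidine, an alanine, a glycine and an isoleucine gene are shown as examples of whole or nearly whole coverage. Coverage of other genes with a locus went down to 15.3%. TRH-GTG1-9 (chr15:45201151-45201222, plus strand) lay inside a 150-base locus, as did its identical copy TRH-GTG1-3 (chr1:148281365-148281436, plus strand). TRI-TAT2-2 (chr6:27020346-27020439, plus strand), whose 94 bases include an intron, also lay whole inside a 150-base locus. The loci on TRA-AGC2-2 (chr6:28863685-28863756, minus strand) and TRG-CCC2-2 (chr16:636736-636806, minus strand) were 100 bases wide and covered 91.7% and 91.5% of their genes. Both missed the first bases at the 5′ end, which on the minus strand is the end at higher coordinates.
TRH-GTG1-9: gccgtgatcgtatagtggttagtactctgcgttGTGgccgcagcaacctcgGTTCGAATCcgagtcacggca
TRI-TAT2-2: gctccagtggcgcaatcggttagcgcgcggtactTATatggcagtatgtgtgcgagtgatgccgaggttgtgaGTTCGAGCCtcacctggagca
TRA-AGC2-2: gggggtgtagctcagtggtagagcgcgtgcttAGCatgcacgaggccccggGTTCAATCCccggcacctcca
TRG-CCC2-2: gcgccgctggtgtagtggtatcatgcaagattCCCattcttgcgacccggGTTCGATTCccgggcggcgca

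In all, 14 tRNA genes lay wholly inside such a window, and they served to check the strand of the loci, because the RefSeq table used gives no strand for a gene. Searched on both strands, the motif GTTCNANNC occurred on 1 strand only in 14 of 14 genes, and a locus lay on that strand in 14 of 14 (interval 76.8 to 100%). For TRP-TGG3-2, which has loci on both strands, that match was certain beforehand. TRH-GTG1-3 and TRH-GTG1-9 are identical in sequence, as are TRP-TGG3-2 and TRP-TGG3-5, so the 14 are not all independent. Of all 35116 promoter windows, which are longer than a tRNA gene, 2626 (7.48%) held the motif on either strand. The 5′ and 3′ ends of the other genes below are oriented by the strand of their locus, an assumption checked only on these 14, with the limits given.

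TRP-TGG3-2, a proline gene, lies 90 bases upstream of the RefSeq start of ANG, the gene of angiogenin. It was 1 of 2 tRNA genes with loci on both strands: a plus-strand locus at chr14:20684001-20684100 covered the gene, and a minus-strand locus of 50 bases at chr14:20684001-20684050 lay opposite its 5′ part. The promoter window of ANG (chr14:20683927-20684226, plus strand, GRCh38.p14) is shown because both loci fall in it, with the tRNA gene in capitals at positions 90 to 161 of 300.
ANG promoter window: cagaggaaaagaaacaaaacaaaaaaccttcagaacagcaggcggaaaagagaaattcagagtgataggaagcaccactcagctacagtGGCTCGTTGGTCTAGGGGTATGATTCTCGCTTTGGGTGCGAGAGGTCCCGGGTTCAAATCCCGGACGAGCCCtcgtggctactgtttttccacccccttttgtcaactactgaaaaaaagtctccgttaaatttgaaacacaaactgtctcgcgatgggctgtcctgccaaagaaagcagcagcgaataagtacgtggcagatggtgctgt

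TRW-CCA3-3 (chr17:8186358-8186429), a tryptophan gene, was the other gene with loci on both strands, 100 bases on plus and 50 bases on minus at 8186351 to 8186400. The other 421 covered genes had 1 locus each. Strands were near balance, with 204 loci on plus and 220 on minus.

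Coverage of tRNA genes stood far above that of other short genes. Of the 429 tRNA genes on assembled chromosomes 421 (98.1%) had a locus, against 39 of 74 tRNA-like pseudogenes (52.7%, interval 40.7 to 64.4%) and 1879 of 5784 non-tRNA genes of 60 to 150 bases (32.5%), with strand ignored throughout. Among genes of known small RNAs, 897 of 1913 miRNA genes (46.9%), 475 of 1193 snoRNA genes (39.8%) and 69 of 149 snRNA genes (46.3%) had one. Genes silent in breast tissue were not removed from the other classes. The intervals of the tRNA genes and of each other class did not overlap. Among genes with a locus, 256 of 421 tRNA genes (60.8%) lay wholly inside 1 locus, against 6 of 39 tRNA-like pseudogenes (15.4%), 162 of 897 miRNA genes (18.1%), 162 of 475 snoRNA genes (34.1%) and 15 of 69 snRNA genes (21.7%). The classes differ in gene length, with a median of 73 bases for tRNA genes and for tRNA-like pseudogenes, 80 for miRNA, 104 for snoRNA and 120 for snRNA genes, and longer genes need longer loci to be covered whole.

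Every amino acid was represented. Of 22 classes (the 20 standard amino acids with methionine split into elongator and initiator, and selenocysteine) 17 had a locus on every gene. These were leucine with 32 genes (TRL-AAG1-1 first by symbol), glycine with 30 (TRG-CCC1-1), valine with 30 (TRNAV-CAC), cysteine with 29 (TRC-GCA1-1), lysine with 27 (TRK-CTT1-1) and arginine with 26 (TRR-ACG1-1). Isoleucine had 23 (TRI-AAT1-1), asparagine 22 (TRN-GTT1-1), proline 20 (TRP-AGG1-1), glutamine 19 (TRQ-CTG1-1), glutamate 16 (TRE-CTC1-1), aspartate 13 (TRD-GTC1-1) and phenylalanine 11 (TRF-GAA1-1). The smallest complete classes were histidine with 9 genes (TRH-GTG1-1), initiator methionine with 8 (TRX-CAT1-1), tryptophan with 7 (TRW-CCA1-1) and selenocysteine with 2 (TRU-TCA1-1). In the other 5 classes a locus lay on 33 of 37 alanine genes (TRA-AGC1-1 first by symbol), 25 of 26 serine genes (TRS-AGA1-1), 19 of 20 threonine genes (TRT-AGT1-1), 12 of 13 tyrosine genes (TRY-ATA1-1) and 10 of 11 elongator methionine genes (TRM-CAT1-1). These counts take an overlap of 1 base as enough. With a locus over at least 50% of the gene required, 13 of the 22 classes were complete.

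**Figure D1:**
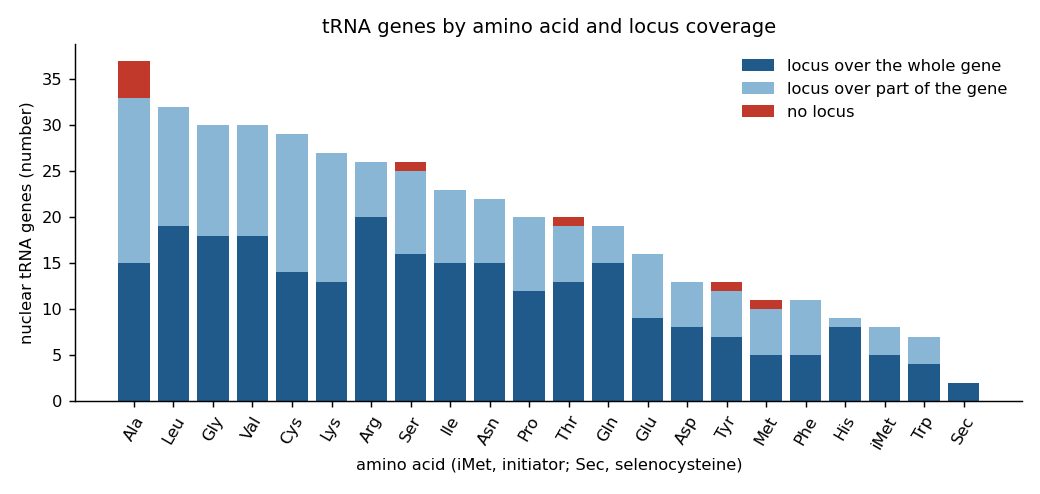
Nuclear tRNA genes per amino acid (number, vertical axis), split into genes wholly inside loci, partly covered and without a locus. Red segments appear in 5 of the 22 classes, the largest in alanine with 4 of 37 genes.

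How much of the gene a locus covered varied more between amino acids than whether it had one. Over all 431 genes, 256 (59.4%, interval 54.6 to 64.1%) were wholly covered and 167 (38.7%) in part, and the median covered gene was covered over 100% of its length. Whole coverage was most frequent for selenocysteine (2 of 2), histidine (8 of 9), glutamine (15 of 19) and arginine (20 of 26). It was least frequent for alanine (15 of 37), methionine and phenylalanine (5 of 11 each), lysine (13 of 27) and cysteine (14 of 29). These classes are small. Loci start and end on a 50-base grid, and a gene that touches 3 of its bins needs a longer locus to be covered whole than one that touches 2. Among the classes most often whole, genes that touch 3 bins were 0 of 2 for selenocysteine and 3 of 9 for histidine. They were 4 of 19 for glutamine and 14 of 26 for arginine. Among those least often whole, they were 15 of 37 for alanine, 4 of 11 for methionine and 7 of 11 for phenylalanine. Lysine had 14 of 27 and cysteine 13 of 29. The part of the grid in the order of the classes was not tested.

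The same held among the 49 anticodons, of which 44 had a locus on every gene. All 5 Arg-TCG and all 4 Arg-CCG genes were wholly covered, as were 8 of 9 Gly-TCC and 11 of 13 Gln-CTG genes. Genes that touch 3 bins were, in that order, 0 of 5, 2 of 4, 2 of 9 and 2 of 13. At the other end stood Gly-CCC, with 0 of 8 genes whole, a median of 70.4% of the gene covered, and 5 genes that touch 3 bins. Gly-GCC, which reads other codons of the same amino acid, had 10 of 13 genes whole, with 5 that touch 3 bins. Ala-AGC had 7 of 25 whole, with 11 that touch 3 bins, against 5 of 8 for Ala-TGC and 3 of 4 for Ala-CGC. Ala-TGC had 3 genes that touch 3 bins and Ala-CGC 1. Lys-TTT had 4 of 13 whole, with 8 that touch 3 bins, against 9 of 14 for Lys-CTT, with 6. The part of the grid in these differences between anticodons was not tested.

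tRNA symbols also number the sequence families within an anticodon, with low numbers given to the genes that score highest as tRNAs in the naming scheme. Whole coverage was less frequent at high numbers. Genes of family 1 were wholly covered in 86 of 116 cases (74.1%, interval 65.2 to 81.8%), and family 2 in 63 of 104 (60.6%). Families 3 and 4 gave 64 of 94 (68.1%), families 5 to 8 gave 30 of 70 (42.9%), and families 9 and above 12 of 38 (31.6%, interval 17.5 to 48.6%). The intervals of the first and the last of these did not overlap, while family 2 and families 3 and 4 did not differ beyond theirs. Genes whose widest locus was 50 bases ran the other way, with 3 of 116 in family 1 and 16 of 38 in families 9 and above. Most genes in families 9 and above are Cys-GCA or Ala-AGC genes, so family number is mixed with anticodon. Within Cys-GCA, whole coverage was no less frequent at 9 and above than below, while within Ala-AGC and Asn-GTT it was. The parts of anticodon and grid in the order of the family numbers were not tested.

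**Figure D2:**
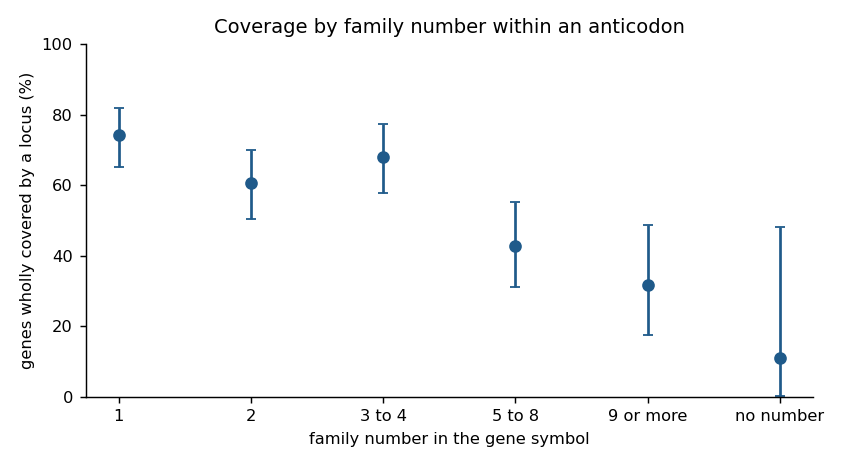
Share of tRNA genes wholly covered by loci (%), by family number in the gene symbol, with exact 95% Clopper-Pearson intervals. The share is 74.1% for number 1 and 31.6% for numbers of 9 and above, and the 9 genes with no number have the widest interval.

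Of the 257 numbered families, 200 held a single gene in the table, and the 6 numbered families without a locus were among these. The 57 families of 2 or more genes all had a locus on every gene, beside a share of 98.1% over all genes. Whole coverage was not uniform within them, since 36 of the 57 held both wholly and partly covered genes, 14 held only wholly covered ones and 7 none.

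Loci on tRNA genes were wide. Of the 424, 379 (89.4%, interval 86.1 to 92.2%) were 100 bases or more, against 4368 of the other 108318 loci (4.03%). Loci on other small RNA genes were also wide, with 50 of 69 on snRNA genes (72.5%), 305 of 483 on snoRNA genes (63.1%), 365 of 905 on miRNA genes (40.3%) and 9 of 39 on tRNA-like pseudogenes (23.1%) at 100 bases or more. By width, 45 were 50 bases, 274 were 100, 99 were 150, 3 were 200, 2 were 250 and 1 was 350 bases. The genes were 70 to 108 bases long with a median of 73, so a gene touches 2 or 3 bins of the grid. The locus filled exactly the bins of its gene in 151 of 220 cases where the gene touched 2 bins (68.6%, interval 62.1 to 74.7%) and in 62 of 205 where it touched 3 (30.2%, interval 24 to 37%). Locus width minus the span of the gene's bins averaged -15.2 bases (SD 39.4 over 425 pairs of locus and gene), with 166 pairs short of the span, 215 equal to it and 44 beyond it.

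The bins left out were mostly those that held little of the gene. Where the outermost bin held 21 to 50 bases of the gene, it was inside the locus in 240 of 250 cases at the 5′ end (96%) and 233 of 254 at the 3′ end (91.7%). Where it held 1 to 10 bases, it was inside in 37 of 94 at the 5′ end (39.4%, interval 29.4 to 50%) and 41 of 72 at the 3′ end (56.9%, interval 44.7 to 68.6%). In both ranges the intervals of the 2 ends overlapped. Both strands are pooled in these shares. Partly covered genes with 100-base loci mostly missed the end at higher coordinates on either strand, as did TRI-TAT3-1 (plus) and TRA-AGC4-1 (minus). The comparison of 5′ and 3′ ends does not separate this direction.

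**Figure D3:**
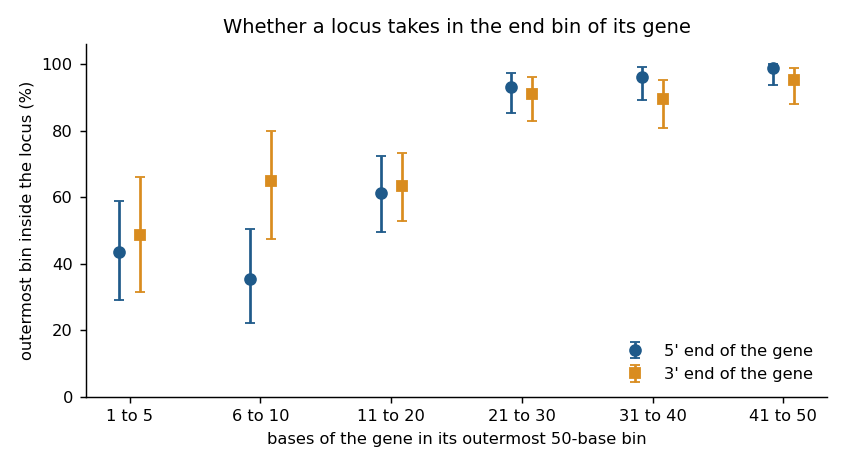
Share of tRNA genes whose outermost 50-base bin lies inside the locus (%), by the number of gene bases in that bin, for the 5′ end (circles) and 3′ end (squares), with exact 95% Clopper-Pearson intervals. From 21 bases upward all points lie at 89.4% or more, while the bins with 20 bases or fewer lie at 64.9% or less.

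Read base by base over the 340 genes of up to 75 bases with a single locus, coverage formed 1 plateau over the gene. A locus on the same strand covered 76.2% of genes at the first base, 97.4% at 30 bases downstream and 82.4% at base 69. Outside the gene it covered 59.1% at 10 bases upstream and 3.53% at 50 bases upstream, and 36.8% at 100 bases and 0.588% at 150 bases from the 5′ end. The slopes on both sides are as wide as a bin, so the grid sets their resolution. No dip stood at the anticodon, and at this resolution loci over fragments from either arm cannot be told from loci over the whole tRNA.

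**Figure D4:**
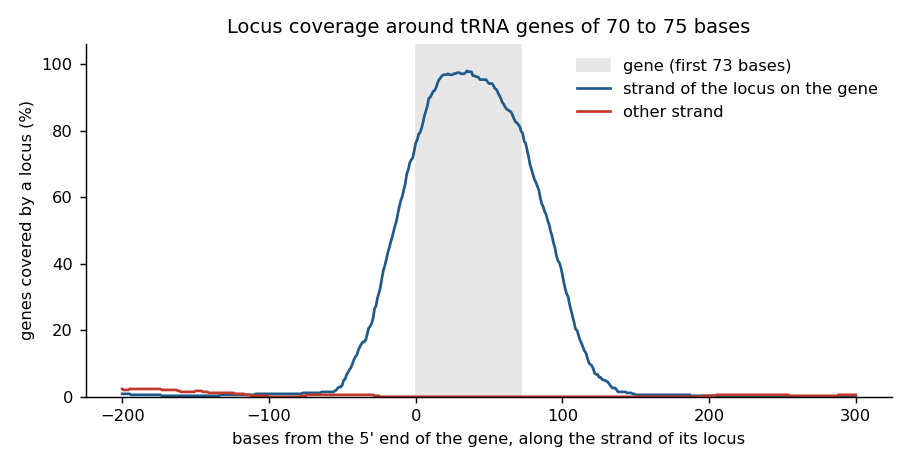
Share of 340 tRNA genes covered by a locus (%), by distance in bases from the 5′ end along the strand of the locus, for that strand and the other strand. Same-strand coverage peaks inside the shaded gene at over 97% and is 0.588% at 150 bases. The other strand is at 0 over the gene by selection, since genes with loci on both strands are left out.

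Beyond the gene, bins were added on the 3′ side more often, but the side followed the strand of the locus. Whole bins were added 3′ in 33 of 425 pairs (7.76%, interval 5.4 to 10.7%) and 5′ in 13 (3.06%, interval 1.64 to 5.17%). The intervals did not overlap, but both shares come from the same pairs, so this is no test of their difference. All 5′ additions but that of TRV-CAC1-5 were on plus-strand loci, and most 3′ additions were on minus-strand loci. Most additions on either side thus ran toward lower coordinates, and plus-strand loci alone had more 5′ than 3′ additions. Whether the greater 3′ share belongs to the tRNA end or to this direction was not tested. The locus over 2 tRNA genes counts on both sides, because it spans the neighbouring gene. Added 3′ bins were most frequent where the gene ended within 10 bases of the bin's edge, at 20 of 94 (21.3%), against 5 of 247 (2.02%) where 21 or more bases were left. At the 5′ end the same shares were 9 of 94 (9.57%) and 3 of 249. The 20 threonine genes had 6 of the 3′ additions, the 30 valine genes 5 and the 20 proline genes 3, all small counts. On TRT-TGT1-1, 1 of the threonine genes, the locus also left out 50 bases of the bins at the 5′ end.

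The widest loci went well past a bin's rounding. One of 350 bases at chr8:66113951-66114300 (plus strand) was the only locus over 2 tRNA genes, TRY-GTA5-2 (66113988 to 66114076) and TRA-AGC8-2 (66114189 to 66114261), a tyrosine and an alanine gene. TRV-CAC1-1, a valine gene on chromosome 1, had 250 bases on the minus strand (161399551 to 161399800), with 100 bases added 3′. TRV-CAC1-5 on chromosome 5 had 250 bases on the minus strand (181222351 to 181222600), with 100 bases added 5′, and this locus reached into MIR4638 (181222566 to 181222633), a miRNA gene on the same strand.

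The 3 loci of 200 bases lay on TRP-AGG2-4 (chr11:76235501-76235700, plus) and TRS-AGA1-1 (chr6:27541651-27541850, minus), each with 100 bases added 3′, and on TRT-AGT1-1 (chr17:8187051-8187250, plus) with 100 bases added 5′. The TRS-AGA1-1 locus still missed the 5′ end of its gene, covering 92.7%.

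A second overlap with a miRNA gene lay on chromosome 17. The 100-base locus of TRS-GCT4-3, a serine gene at 8186866 to 8186947, ran to 8186950 on the plus strand and touched the first bases of the MIR4521 hairpin (8186945 to 8187004), whose 5′ end overlaps the tRNA gene by position. The mature miR-4521 (8186948 to 8186969) is shown as RefSeq gives it, with its seed in capitals.
hsa-miR-4521: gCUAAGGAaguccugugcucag

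At the narrow end, 45 loci were 50 bases wide. The first 5 in the alphabet, so alanine genes by that order, were those on TRA-AGC10-1, TRA-AGC12-1, TRA-AGC12-3, TRA-AGC14-1 and TRA-AGC14-2 of chromosome 6. This width was found for 9 of 33 loci on alanine genes, 6 of 30 on valine genes and 5 of 30 on glycine genes. It was found for 5 of 22 on asparagine, 4 of 29 on cysteine and 3 of 27 on lysine genes. The share over all 424 loci was 10.6%. The smallest overlap was 11 bases, on TRC-GCA16-1 (chr7:149546540-149546611), a cysteine gene covered over 15.3% at its plus-strand 5′ end by a locus at 149546501 to 149546550. TRA-AGC12-1 followed with 14 bases (19.2%) and TRA-AGC12-3 with 23 bases (31.5%). In all, 7 covered genes had less than 50% of their length inside a locus, TRV-TAC4-1, TRG-CCC1-2, TRI-AAT9-1 and 1 gene named TRNAA-AGC being the others.

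Long genes, most of which carry an intron, were set beside the short ones. The 29 genes of 85 bases or more, which are mostly the intron-bearing Leu-CAA, Tyr-GTA, Ile-TAT and Arg-TCT genes, were whole in 17 cases (58.6%, interval 38.9 to 76.5%), against 208 of 349 genes of 70 to 75 bases (59.6%, interval 54.2 to 64.8%). The intervals overlapped, and the first is wide. All 5 Leu-CAA genes in this range, at 105 to 108 bases the longest, were wholly covered, each by a 150-base locus. Tyr-GTA was whole in 7 of 12, Ile-TAT in 3 of 5 and Arg-TCT in 1 of 5, and the single Tyr-ATA gene had no locus. Genes that touch 3 bins were 5 of 5 for Leu-CAA, 10 of 12 for Tyr-GTA, 5 of 5 for Ile-TAT and 5 of 5 for Arg-TCT. Over all pairs of locus and gene they were 205 of 425, so long and short genes differ in their place on the grid. Since loci do not record splicing, whether the reads came from pre-tRNA or mature tRNA was not tested.

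Chromosome 6 carried 154 tRNA genes, 148 of them with a locus and 88 whole, and chromosome 1 carried 85, all with a locus and 52 whole. Runs of 5 or more genes with neighbours at most 50 kb apart formed 16 clusters, of which 8 lay on chromosomes 6 and 1 and held a locus on 169 of 175 genes (96.6%, interval 92.7 to 98.7%). The largest, chr6:28474552-28989083, had a locus on 43 of 43 genes, 23 of them whole, with alanine (15) the most frequent. The cluster at chr1:161399700-161540314 was covered at 31 of 31, with 24 whole and no locus of 50 bases. It repeats a small set of genes, glycine (12), leucine (6) and aspartate (5), and the loci alternate in strand with them: all 5 Asp-GTC loci were on minus and 5 of 6 Leu-CAG loci on plus.

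The cluster at chr6:26673362-26828299 looked different. A locus lay on 16 of its 18 genes, only 3 of them whole, and 10 of the 16 loci were 50 bases wide. It holds 10 alanine, 5 methionine and 3 isoleucine genes, and the 10 narrow loci lay on 7 Ala-AGC, 2 Met-CAT and 1 Ile-AAT gene. Its 3 whole genes were TRM-CAT4-1, TRM-CAT4-2 and TRI-AAT7-2. The cluster's alanine genes are all Ala-AGC genes of families 9 and above or without a family number. Over all anticodons, this cluster included, 12 of 38 genes of families 9 and above and 1 of 9 without a number were whole. The part of family number in the cluster's coverage was not tested. The neighbouring cluster at lower positions, chr6:26521208-26594962 with 9 amino acids, had 11 of 13 whole and no locus of 50 bases. The cluster with the fewest genes on chromosome 6, chr6:57800211-57856473 had a locus on 3 of 6 genes, the lowest share of the 16 clusters, and the second lowest was the 16 of 18 at chr6:26673362-26828299.

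**Figure D5:**
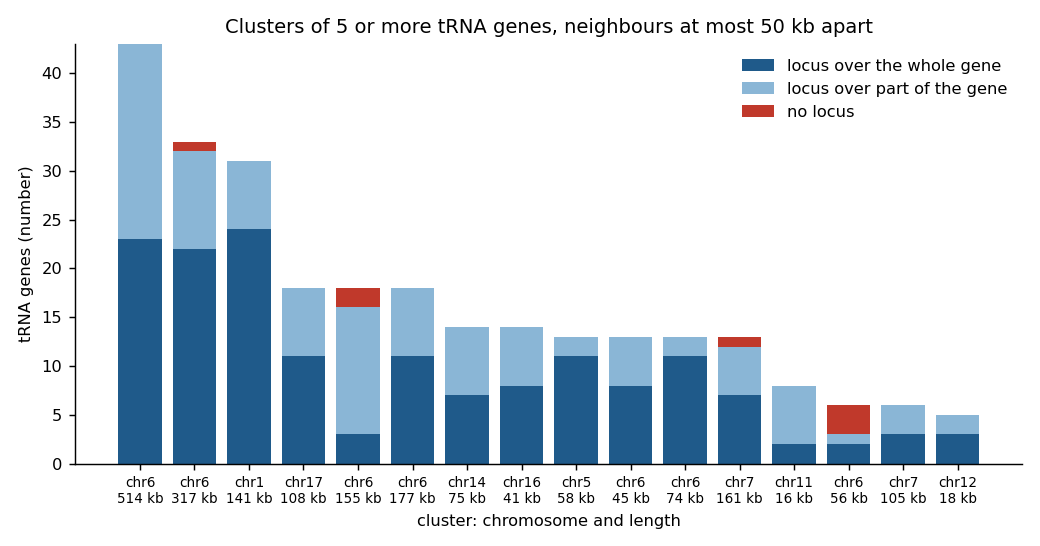
tRNA genes in the 16 clusters (number, vertical axis), by chromosome and length of the cluster in kb, split by coverage. The 155 kb cluster on chromosome 6 has 3 of 18 genes whole and the 56 kb cluster has 3 of 6 without a locus, while the 141 kb cluster on chromosome 1 has 24 of 31 whole.

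The 8 genes without a locus (1.86%, interval 0.805 to 3.62%) were mostly on chromosome 6. TRY-ATA1-1 (chr2:218245826-218245918), the only gene with the tyrosine anticodon ATA, had its nearest locus 276 bases away. Of the alanine genes, 2 named TRNAA-AGC (chr6:26705377-26705449 and chr6:26796209-26796281), TRA-AGC24-1 (chr6:57815974-57816046) and TRA-AGC13-2 (chr6:57838350-57838422) had none, which left Ala-AGC with 21 of 25. Their nearest loci lay 2424 to 5379 bases off.

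TRT-CGT5-1 (chr6:27618356-27618429), a threonine gene, TRM-CAT7-1 (chr6:57842214-57842286), a methionine gene, and TRS-AGA5-1 (chr7:149608376-149608447), a serine gene, completed the list, at 1772, 1515 and 4654 bases from the nearest locus. For all but TRY-ATA1-1, other genes with the same anticodon had loci. Whether reads of the missing copies were assigned to those was not tested.

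Few genes had a separate locus close by, though no share for windows elsewhere was computed to set this against. Apart from loci on other tRNA genes, no separate locus lay within 100 bases on the same strand on either side of the 421 genes with loci on 1 strand only. Within 250 bases, loci on the other strand lay upstream of 13 genes (3.09%, interval 1.65 to 5.22%) and downstream of 4 (0.95%, interval 0.26 to 2.42%), against 2 genes upstream and 3 downstream on the same strand. The nearest of the upstream ones were at 25 bases from TRK-CTT5-1, 29 bases from TRC-GCA9-2 and 35 bases from TRR-TCT3-1. The upstream and downstream intervals overlapped.

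By GENCODE release 29, 300 of the 431 genes lay between other genes, 97 in introns and 34 over exons. A locus lay on 294, 95 and 34 of them, and 176, 60 and 20 were whole, so coverage did not follow this setting beyond a few points: 58.7% between genes, 61.9% in introns and 58.8% over exons. Of the intronic genes with a locus, 58 had it on the strand of the host gene and 34 on the opposite strand, leaving aside those with hosts on both strands or loci on both. Promoter windows of RefSeq genes overlapped 27 tRNA genes, and 11 of these windows' genes coded for proteins. One is POLR3E, which codes for a subunit of RNA polymerase III, with TRL-AAG2-4, a leucine gene, 188 bases upstream of its start and wholly covered by a locus at chr16:22297101-22297250.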

How the data were processed

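The data were 1 list of loci deposited by the authors, not tied to any library. The breast cancer cohort of The Cancer Genome Atlas, the peak caller Piranha and the words collapsed loci stand in its name. Not given in the sources used here are the Piranha version, its threshold, the number of cohort samples and what was collapsed. In the deposited list the score is 1 in every row, so it gives neither rank nor depth. The submitters' processing notes name hg38, cutadapt, Bowtie2 2.2.8, SAMtools and bedtools.

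Positions were converted to count from 1. Loci were matched to RefSeq tRNA genes (GRCh38.p14) by at least 1 base, strand ignored because the table used gives none. Of 443 nuclear tRNA rows, 429 lie on assembled chromosomes and 2 on a scaffold identified through a neighbouring gene of GENCODE release 29. The other 12, judged from their place in the table's order, appear to carry positions on sequences that the table does not name. They were not used, and the total of 431 genes rests on that judgement. Amino acid, anticodon and family were read from symbols. Named genes were all those without a locus, loci over 2 genes, the widest and narrowest loci, 1 example per amino acid, and intron-bearing anticodons, and other genes were named after their values were seen. Members and lists were chosen with earlier results of these data known. Shares carry exact Clopper-Pearson 95% intervals. No test was run, since the list has no samples. The overlap code was tested on simulated loci. Python 3.11.15, pandas 2.3.3 and scipy 1.17.1 were used.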

Additional observations from a re-analysis of the deposited data

How the results depend on the processing

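Of 20 alternatives, 18 stayed within tolerance, that is 1.5 times for a count, the counting interval for a share and 1 SD for the mean width difference. With loci of at most 50 bases only, 45 tRNA genes had a locus in place of 423, since few loci on tRNA genes are that narrow. With at least 90% of the gene covered taken as whole, a choice made after seeing the data, 72.6% of genes counted as covered, against 59.4% when every base was required. The number of genes with a locus was 343 to 423 under the other overlap and width rules. Reading all table rows as chromosome positions, also chosen after seeing the data, gave 421 of 443 genes. Of those rows, 12 were left out of the main count only by their place in the table's order. Clusters on chromosomes 6 and 1 held 137 covered genes at 25 kb and 173 at 100 kb between neighbours. The alternatives that need the strand of a gene were not run. No paired analysis was possible because the list holds no value for any library. Depth cannot be given, so the absence of a locus is no measure of absence of RNA.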
